A study of Mus musculus with 82 samples.

Results

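Nascent RNA from single nuclei was set against nascent RNA from pools of intact nuclei, gene by gene, to ask which genes and classes of reads differ between scGRO–seq and inAGTuC. Both assays were run on V6.5 mouse embryonic stem (ES) cells grown in serum with leukaemia inhibitory factor, with no other treatment in the labels. In both, nuclei were left whole during a run-on reaction with propargyl-modified nucleotides, and the labelled RNA was clicked to DNA carrying the barcode of its well. The well held 1 sorted nucleus in scGRO–seq and a pool of nuclei in inAGTuC. The study describes pools of several sizes, and the labels do not say which size applies to each of these libraries.

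The scGRO–seq side comprised 53 libraries of the batches Exp156, Exp160, Exp208, Exp211, Exp236, Exp246, Exp260, Exp260b, Exp263 and Exp264a, summed to 10 samples. All barcodes were summed, including those of libraries such as Exp160_c03 and Exp211_c08, in which 0 barcodes had at least 1000 reads and 750 genes. The inAGTuC side comprised 3 libraries, Exp208_c12, Exp208_c14 and Exp234_c11. The series holds 82 samples in all. The inAGTuC library Exp261_c16 was kept apart, because 99.7% of the molecules in a list of that name labelled scGRO–seq are also in it, and its values are given beside some results. The labels do not settle which assay gave its reads. Batches had between 297987 and 5117561 reads after removal of reads listed in more than 1 library, and the inAGTuC libraries had 623265, 821614 and 1462003. Between 19.2% and 23.5% of the reads of each inAGTuC library were listed elsewhere and left out. The loss was less even among the scGRO–seq libraries. It was 1.72% in Exp208_c01 and 2.92% in Exp208_c11, and between 32.6% and 47.4% in the libraries of Exp236. Libraries of Exp264a lost between 26.9% and 53.8%, and Exp211_c12 lost 67.6%. Nothing in the labels says whether batches came from separate cultures, and 2 of the 3 inAGTuC libraries share the batch Exp208, so that p-values measure the spread between these samples only. Exp208 is also the single batch of the comparison that holds both assays, and for the other batches assay and batch cannot be told apart. A level below is given in RPM, reads per 1000000 reads in the gene bodies tested, after trimmed-mean (TMM) scaling, where the body of a gene leaves out 500 bp at each end. Levels of Exp261_c16 are scaled in the same way, in a set of samples that includes it. A difference in such a level can come, among other sources, from the number of transcribing nuclei or from the polymerases in each, and these cannot be told apart in summed reads.

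Run-on assays extend the RNA that engaged polymerases already hold, and the end of a read marks where a polymerase stood. Small nucleolar RNAs (snoRNAs), which guide the modification of ribosomal RNA, are cut and trimmed out of introns of host genes, many of which encode ribosomal or nucleolar proteins. A read inside a gene body can therefore come from the nascent host transcript or from a stable RNA lying within it. Markers of ES cells were present in every sample, with a summed level of 10 genes between 775 and 1843 RPM in the batches and of 727, 1256 and 1032 in the inAGTuC libraries. Of these genes Sox2 had 0 reads, because it lies inside Sox2ot on the same strand and shared reads were left out. The 8 fibroblast markers summed to between 31.4 and 175 in the batches and to 64.4, 41.6 and 99.9 in the inAGTuC libraries. The 10 markers of other lineages summed to between 41.5 and 249 against 114, 101 and 172, with Sox1, inside Sox1ot, at 0, and the 3 blood markers to between 5.92 and 162 against 30.3, 13.1 and 86.9. In these 3 lists the batches and libraries overlapped.

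The positions where reads piled up in the genes that differed are shown first. In each line the 30 bases are on the RNA strand, 5′ to 3′, of the GRCm38 reference, and the RNA 3′ end of the piled reads lies on base 21. For the 6 genes higher in scGRO–seq the base at the RNA 3′ end is in capitals, and every position is intronic.
Gas5, chr1:161036123-161036152, plus strand: tgattataactgaggcacacAaaataatga
2410006H16Rik, chr11:62603506-62603535, plus strand: ctgctcctggctgactgcagTcaagcccac
Kansl2, chr15:98519703-98519732, minus strand: atttggaagaaacaacccttGttctctctg
Ncl, chr1:86351156-86351185, minus strand: tgttgtgtgagacattatgaGatactggcg
Rps3, chr7:99479553-99479582, minus strand: gaggcatttgtctgagaaggGaacagcgct
Rpl13, chr8:123103090-123103119, plus strand: ccttttccatctgatgacacCgagttttct
For 6 of the genes higher in inAGTuC the position with most inAGTuC reads is shown, again intronic, with GAATTCC in capitals where it occurs.
Igf2r, chr17:12733965-12733994, minus strand: ggacccgaGAATTCCtggggtgctgcttct
Trpm1, chr7:64198795-64198824, plus strand: gcggcaccctaGAATTCCagaaggtcactt
Gm5441, chr12:117280088-117280117, minus strand: atgccgataattccaggggaTccaatgccc
Srrm4, chr5:116537439-116537468, minus strand: tccccgaGAATTCCaggcatttcttgttca
Iqca1l, chr5:24546561-24546590, minus strand: gggtgaGAATTCCaggggagtgggaaaagc
Lipe, chr7:25386925-25386954, minus strand: aaGAATTCCaggggcaccgggcgtggtggc
The last set holds 4 of the intronic positions with the most scGRO–seq reads ending on the last base of TACAGG, in capitals, in genes that were tested and not called.
Khk, chr5:30923348-30923377, plus strand: gcacagagacagtggTACAGGagcacaggg
Plxna2, chr1:194708053-194708082, plus strand: gccttgtgtataaggTACAGGgctgagccc
Agxt, chr1:93138371-93138400, plus strand: tcccatacaggggttTACAGGagaactgtt
Nbea, chr3:55658267-55658296, minus strand: tcagtgggtacaggcTACAGGagaccccgc

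Few genes differed between the assays. Of 9877 gene bodies with enough reads to test, out of 23111, 26 passed an adjusted p of 0.05 by limma voom, which is 0.263% of those tested. scGRO–seq was higher for 6 of them (0.0607%) and inAGTuC for 20 (0.202%). The split moved with the scaling, to 14 and 94 with gene body totals and to 16 and 18 with all kept reads. It was 20 and 83 with scGRO–seq barcodes limited to those of at least 1000 reads and 750 genes, in libraries holding at least 24. All 6 genes higher in scGRO–seq and 9 of the 20 higher in inAGTuC were consistent, meaning that the 10 batch values and the 3 library values did not overlap. Over all tested genes, without regard to p, values did not overlap for 53 genes with scGRO–seq higher (0.537%) and for 82 with inAGTuC higher (0.83%). The 26 genes lie close to the threshold, with adjusted p between 0.0092 and 0.0497, while 1180 genes had an unadjusted p below 0.05. Most levels were alike in size, since the log2 fold change was within 1 for 91.7% of genes and had a median of 0.016. Its standard error had a median of 0.36 on the log2 scale, so that the 95% interval lay wholly within 1 of 0 for 39.9% of genes. The count was 4 with batch as a random block and 3 with both Exp208 inAGTuC libraries summed, and all 6 genes higher in scGRO–seq were lost in both settings. These 6 were lost too with all deposited reads (4 called), at a mapping quality of at least 20 (3 called) and without Exp264a (2 called). The count also rests on single samples, as it was 0 without Exp236 (925 at an unadjusted p below 0.05) and 48 without Exp211. For genes that were not called and whose interval reached past 1 in either direction, a log2 difference of over 1 was neither detected nor excluded at this depth.

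**Figure D1:**
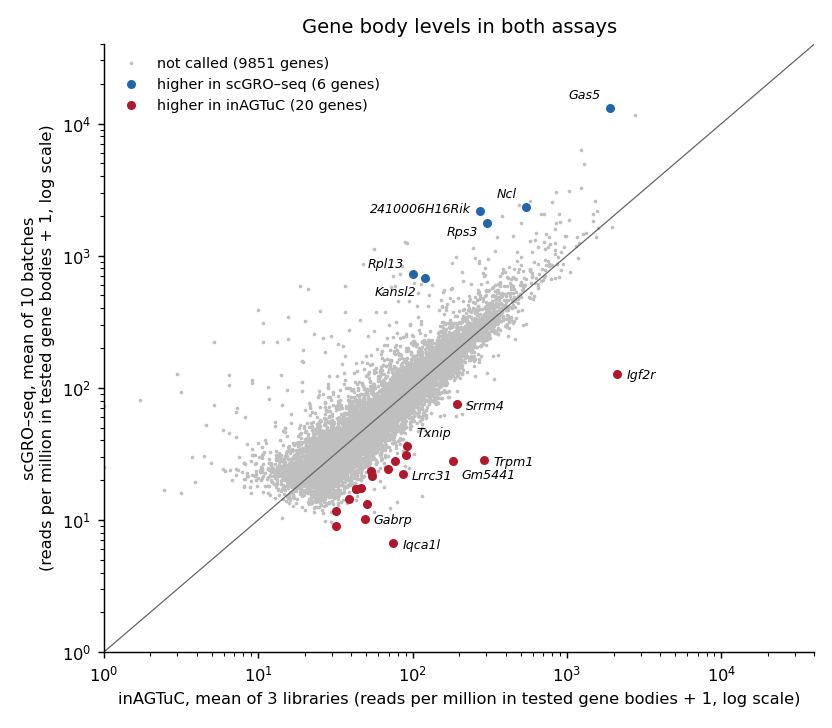
Mean level of each of the 9877 tested genes in the 3 inAGTuC libraries (x axis) and the 10 scGRO–seq batches (y axis), in RPM plus 1 on log scales, with equal levels on the line. The 6 called genes above the line are among the highest for their inAGTuC level, and of the 20 below it Igf2r has the highest inAGTuC level, at 2113, followed by Trpm1, Srrm4 and Gm5441 at 289, 192 and 181.

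All 6 genes higher in scGRO–seq carry annotated snoRNAs in their introns, while 9616 of the 9877 gene bodies tested carry none, a division made after values were seen. The converse did not hold, as most tested gene bodies with an annotated snoRNA were not called. Their median log2 fold change was 0.46 and the lowest -1.11, with 76.6% above 0. Values did not overlap for 11 of them, the 6 called genes included, each with scGRO–seq higher. Gas5 is a non-coding RNA gene known as a host of several snoRNAs, 2410006H16Rik is a non-coding host of Snord49a, Ncl encodes nucleolin, Rps3 and Rpl13 encode proteins of the small and the large ribosomal subunit, and Kansl2 encodes a subunit of a histone acetyltransferase complex. Gas5 had a level of 4196 in the lowest batch, 10750.3 in the median batch and 28548 in the highest, and of 3638, 1538 and 502 in the inAGTuC libraries Exp208_c12, Exp208_c14 and Exp234_c11. Its log2 fold change was 2.96 ± 0.54 (SE, adjusted p = 0.0343). Every batch lay above every inAGTuC library, though the batch Exp208 was near Exp208_c12.

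Rpl13 differed most, with batch levels of 339.7, 632 and 1342 (lowest, median and highest) against 204, 85.3 and 10.9, and a log2 fold change of 3.67 ± 0.62 (adjusted p = 0.0287). For 2410006H16Rik the batches had 585, 1984 and 4858 and the inAGTuC libraries 462, 206 and 154 (2.88 ± 0.52 on the log2 scale, adjusted p = 0.0343). In both genes Exp208_c12 came nearest to the batches and Exp234_c11 was lowest. Kansl2 ranged over 252, 519.8 and 1689 in the batches against 204, 103 and 49.95 (2.59 ± 0.49, adjusted p = 0.0459), and Rps3 over 612, 1559 and 3854 against 469, 262 and 178 (2.41 ± 0.47, adjusted p = 0.0459). Ncl ranged over 1392, 2104 and 4428 in the batches against 856, 597 and 172 (2.28 ± 0.41, adjusted p = 0.0343). The order of the 3 inAGTuC libraries was the same in all 6 genes. It is also the order of their share of reads on small RNA genes, which was 5.66%, 2.60% and 0.771% of kept reads, and the genes were therefore also compared without such reads.

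The reads that set these levels lay on and next to the snoRNAs. Of the scGRO–seq reads in the 6 gene bodies, between 88.1% in Ncl and 99.3% in 2410006H16Rik were within 10 bases of an annotated small RNA gene, against between 54.03% in Kansl2 and 96.5% in 2410006H16Rik of the inAGTuC reads. At the Gas5 position printed above, 4 bases past the 3′ end of the snoRNA annotated as LOC115487638 (SNORD24 in RefSeq), scGRO–seq had 7776 reads in 6 batches and inAGTuC had 3 reads. The 2410006H16Rik position, 5 bases past Snord49a, had 7252 reads against 2. Single positions thus carried 10.0% of the scGRO–seq reads of Gas5 and 54.7% of those of 2410006H16Rik.

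Kansl2 had 1442 scGRO–seq reads 4 bases past Snora34, and Ncl had 1210 reads 4 bases past Snora75, each in 6 batches, with 0 inAGTuC reads at either position. Rps3 had 1137 reads against 5 at 1 base past Snord15b, and there all 10 batches and all 3 libraries held reads. Rpl13 had 968 reads against 2 at 13 bases before the annotated end of Snord68. With small RNA genes and 10 bases around each left out, an alternative added after seeing the data, no gene was called higher in scGRO–seq. The log2 fold change then fell to 0.45 for Gas5 (adjusted p = 0.669), 0.46 for Kansl2 (adjusted p = 0.533), 0.85 for Ncl (adjusted p = 0.229) and 0.32 for Rps3 (adjusted p = 0.770), and Rpl13 and 2410006H16Rik had too few reads left to test. Leaving out small RNA genes without the 10 bases, at 1 read per position, strand and barcode, also ended these calls. The log2 fold change there stayed at 2.91 for 2410006H16Rik, 2.87 for Gas5, 2.78 for Rps3, 2.05 for Kansl2 and 1.96 for Ncl.

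Within the batch Exp208, the summed scGRO–seq libraries were above both inAGTuC libraries for all 6 genes. With Exp208_c12 and Exp208_c14 set against the 2 scGRO–seq libraries of that batch, the log2 fold change was 0.64 for Gas5, 0.77 for Ncl, 0.82 for Rps3, 1.18 for 2410006H16Rik, 1.29 for Rpl13 and 1.52 for Kansl2, and no gene was called among 5792 tested, with 308 at an unadjusted p below 0.05 by limma voom. With a batch block over Exp208, Exp234 and Exp261, with scGRO–seq libraries of the latter batches that are not among the 53 and Exp261_c16 as an inAGTuC library, none of the 6 was called, and their log2 fold change was -0.30 for Gas5, -0.19 for Rps3, -0.09 for Ncl, -0.02 for 2410006H16Rik, 0.20 for Kansl2 and 0.29 for Rpl13. In that block the scGRO–seq side of Exp234 was Exp234_c09 alone. That library had 18319 gene body reads and 2 barcodes of at least 1000 reads and 750 genes. Exp261_c16 is the library whose reads are also listed as scGRO–seq. Without Exp234_c11, the lowest library in all 6, none of them was called either, at log2 fold changes between 1.59 for Ncl and 2.53 for 2410006H16Rik. Exp261_c16, the inAGTuC library kept apart, had levels inside the range of the batches for every one of the 6, such as 14549.9 for Gas5 and 665 for Rpl13. With it added to the 3 inAGTuC libraries, limma voom called 0 genes, while 369 had an unadjusted p below 0.05.

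**Figure D2:**
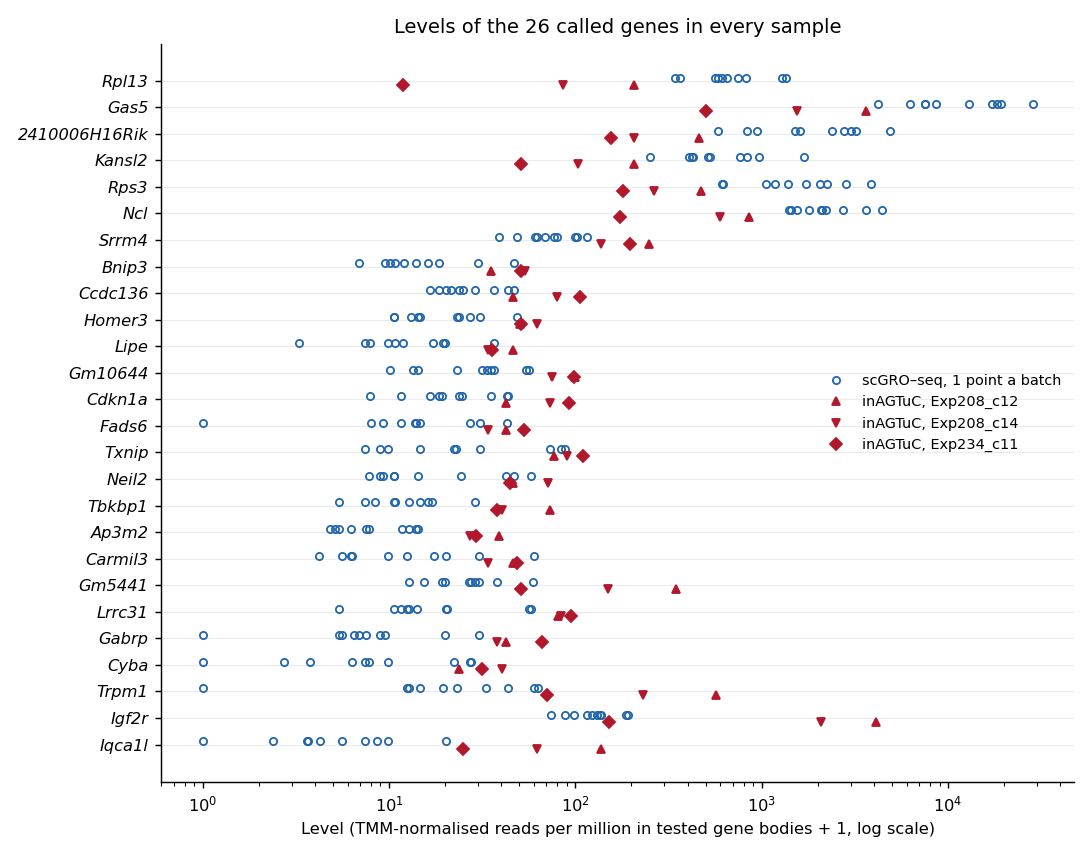
Levels of the 26 called genes, in TMM-normalised RPM plus 1 on a log scale, in each of the 10 scGRO–seq batches (open circles) and in each inAGTuC library (filled symbols). The 3 inAGTuC libraries lie left of all batches in the upper 6 genes, and Exp208_c12 and Exp208_c14 lie far right of Exp234_c11 in Igf2r, Trpm1 and Gm5441.

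The share of small RNA genes as a class overlapped between the assays. They took 4.51% ± 2.77 of kept reads in scGRO–seq (SD, n = 10) and 3.01% ± 2.47 in inAGTuC (n = 3, exact permutation p = 0.409), with 4.57% and 4.13% within Exp208, and Exp208_c12 was above 8 of the 10 batches.

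The share of RNA 3′ ends just past a snoRNA differed between batches. In Exp156, Exp160, Exp208 and Exp211, between 1.56% and 3.82% of the reads in the window from 150 bases before to 50 bases past a snoRNA end lay 1 to 10 bases past it. In the other 6 batches the share was between 44.1% in Exp246 and 63.1% in Exp260b. Exp208_c12, Exp208_c14 and Exp234_c11 had 5.62%, 4.82% and 2.53%, and Exp261_c16 had 47.4%. In the 3 inAGTuC libraries more of the reads lay over 10 bases inside the snoRNA or before it, at 50.2%, 54.9% and 90.1% against between 8.33% and 42.3% in the batches, but Exp261_c16, at 21.4%, lay inside the range of the batches. Within Exp208 this share was 30.96% in scGRO–seq against 50.2% and 54.9% in inAGTuC, and 65.2% of the scGRO–seq reads lay on the last 11 bases of the snoRNA against 43.9% and 39.5%. The largest piles of Gas5, 2410006H16Rik, Kansl2 and Ncl, 4 or 5 bases past a snoRNA, thus lie where few reads of those 4 batches and of the 3 inAGTuC libraries end.

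**Figure D3:**
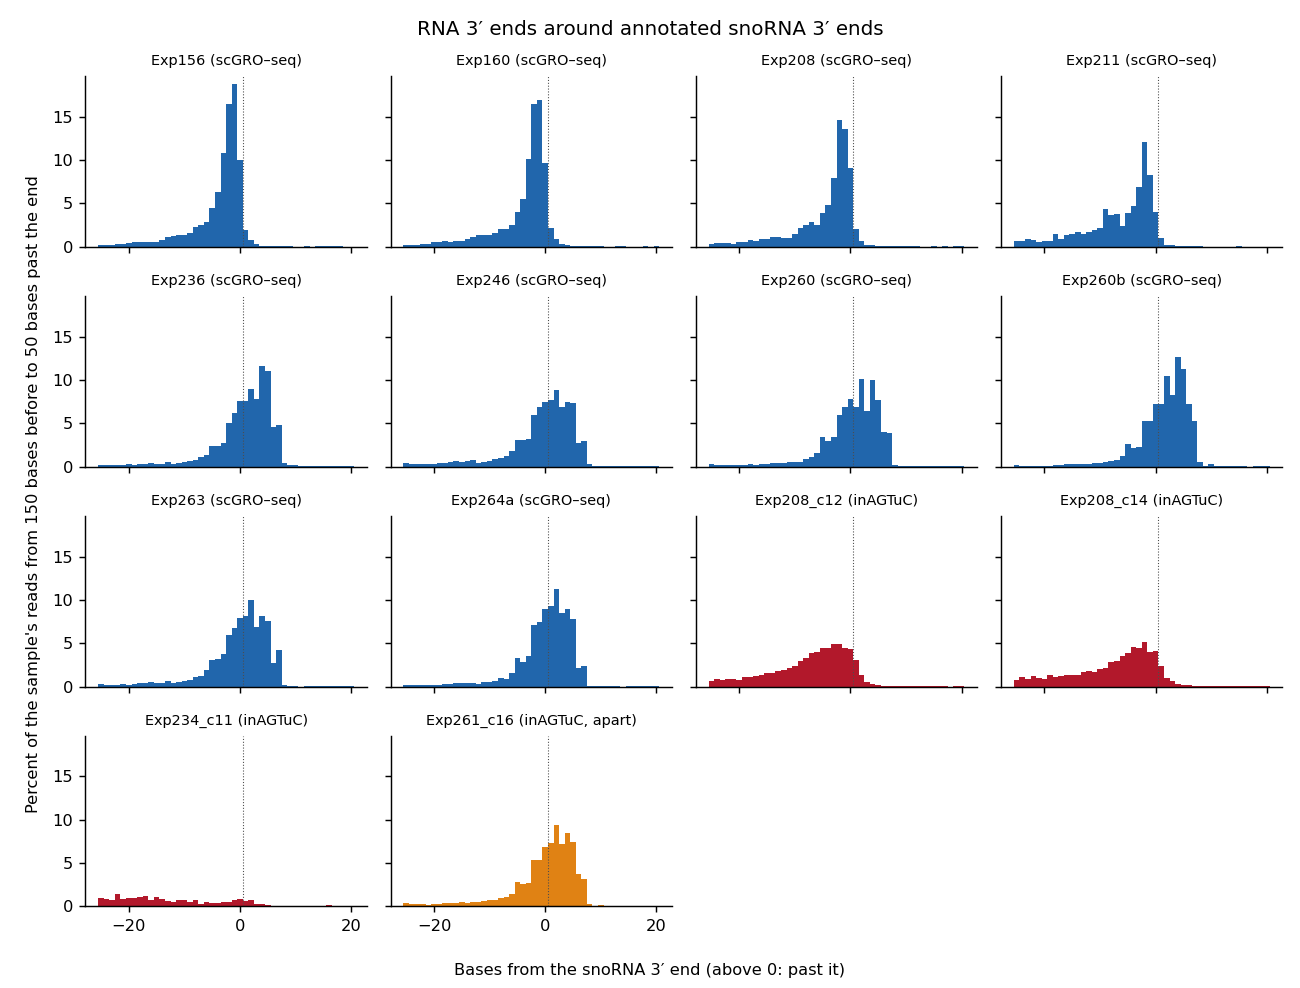
Percent of a sample's reads (y axis) at each base around the 3′ ends of annotated snoRNAs (x axis, in bases, positive past the end), in 1 panel per sample, for the 10 scGRO–seq batches (blue), 3 inAGTuC libraries (red) and Exp261_c16 (orange). Reads of Exp156, Exp160, Exp208 and Exp211 stop at the end, reads of the later batches and of Exp261_c16 run several bases past it, and reads of Exp234_c11 show no such peak.

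Of the 20 genes higher in inAGTuC, the reads of 12 were spread over the gene body, with under 10% of the inAGTuC reads at any one position, and those of 8 were not. The 12 are Lrrc31, Gabrp, Cyba, Carmil3, Ap3m2, Neil2, Txnip, Fads6, Cdkn1a, Homer3, Ccdc136 and Bnip3. They are of low level, with a mean between 30.8 and 91.3 in inAGTuC and a median between 6.23 and 23.2 in the batches, and rest on between 35 and 111 inAGTuC reads each. Their median length was 17.96 kb, where that of all tested genes was 43.8 kb.

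Lrrc31, which encodes a leucine-rich repeat protein, and Gabrp, which encodes the pi subunit of a receptor for GABA, are the 2 genes still called without small RNA genes and with 1 read per position, strand and barcode. Lrrc31 had a level of 4.41 in the lowest batch, 12.5 in the median batch and 57.1 in the highest, and of 79.5, 83.1 and 93.4 in the inAGTuC libraries, a log2 fold change of -2.51 ± 0.34 (SE, adjusted p = 0.00919). The groups did not overlap, but Exp208 and Exp211, at 57.1 and 55.4, stood well above the other 8 batches. Gabrp was at 0 in Exp246, 6.23 in the median batch and 29.3 in Exp211, against 41.6, 37.2 and 65.2, a log2 fold change of -2.73 ± 0.39 (adjusted p = 0.00976). Within Exp208, the log2 fold change of Lrrc31 was -0.39, far smaller than over all batches.

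Ap3m2, for a subunit of the AP-3 adaptor of membrane traffic, and Homer3, for a scaffold protein of synapses, were the other consistent genes of spread reads. Ap3m2 ranged over 3.80, 6.68 and 13.3 in the batches against 37.9, 26.2 and 28.2 (-2.15 ± 0.36 on the log2 scale, adjusted p = 0.0287). Homer3 ranged over 9.63, 17.9 and 47.4 against 49.2, 61.2 and 49.95 (-1.81 ± 0.32, adjusted p = 0.0343). The highest batch of Homer3, Exp156, came close to the lowest inAGTuC library.

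Txnip, Cdkn1a and Bnip3 overlapped between the assays. Txnip, whose protein binds thioredoxin, had 82.9, 87.5 and 71.7 in Exp156, Exp208 and Exp211, 29.9 in Exp160 and between 6.46 and 22.02 in the other 6 batches, against 75.7, 89.7 and 109 in inAGTuC (-2.05 ± 0.42, adjusted p = 0.0497). Exp156 and Exp208 were thus within the range of the inAGTuC libraries and Exp211 just below it, and within Exp208 the log2 fold change was 0.02. Cdkn1a, an inhibitor of cyclin-dependent kinases and a target of p53, ranged over 6.88, 20.4 and 42.4 against 41.6, 72.2 and 91.2 (-1.95 ± 0.39, adjusted p = 0.0459). Bnip3, a mitophagy receptor induced in hypoxia, ranged over 5.92, 11.96 and 45.6 against 34.1, 52.5 and 49.95 (-1.70 ± 0.33, adjusted p = 0.0459), and its highest batch was Exp208.

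For the other spread genes the picture was alike. Neil2, which encodes a DNA glycosylase, ranged over 6.85, 11.5 and 57.1 against 45.4, 69.997 and 43.4, with its 3 highest batches Exp208, Exp211 and Exp156. Cyba, for a subunit of NADPH oxidase, was between 21.4 and 26.6 in Exp160, Exp208 and Exp211 and between 0 and 8.82 elsewhere, against 22.7, 39.4 and 30.4. Ccdc136 ranged over 15.7, 23.2 and 45.6 against 45.4, 78.7 and 104, Fads6, of the fatty acid desaturase family, over 0, 12.9 and 41.8 against 41.6, 32.8 and 52.1, and Carmil3, of a family that regulates actin capping protein, over 3.23, 10.1 and 59.2 against 45.4, 32.8 and 47.8. In each of these 5 genes the highest batch reached into or past the range of the inAGTuC libraries. Of the 12 genes, 11 had their highest batch among Exp156, Exp160, Exp208 and Exp211 (91.7%), where 49.2% of all tested genes did. Of all 20 genes, Exp208 was below both inAGTuC libraries of its own batch for 13 and not for 7. Within Exp208 the log2 fold change was -0.41 for Neil2, -0.40 for Ccdc136 and -0.27 for Bnip3, where it was -2.07, -1.74 and -1.70 over all samples, and -1.21 for Homer3. With a batch block over Exp208, Exp234 and Exp261 it was -0.47 for Lrrc31, -0.39 for Ccdc136, -0.22 for Neil2, -0.20 for Bnip3, -0.12 for Txnip, -1.08 for Cdkn1a and 0.47 for Fads6, and none of the 20 that could be tested was called in either fit.

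The other 8 genes had between 10.5% and 50.2% of their inAGTuC reads at 1 position, and those reads came from Exp208_c12 and Exp208_c14 alone. Igf2r, the imprinted receptor that carries insulin-like growth factor 2 to lysosomes, had levels of 4119 and 2069 in Exp208_c12 and Exp208_c14 and of 149.9 in Exp234_c11, where the batches ranged over 72.9, 126 and 190.04. Its log2 fold change was -3.18 ± 0.63 (adjusted p = 0.0459), but Exp234_c11 lay within the range of the batches. One position held 820 of its 2103 inAGTuC reads and 1 of its 701 scGRO–seq reads. Trpm1, which encodes a cation channel of retina and melanocytes, had 567.9, 229.7 and 69.5 against 0, 20.4 and 61.9 in the batches (-2.97 ± 0.59, adjusted p = 0.0459), with 144 of 287 inAGTuC reads at 1 position and 0 of 162 scGRO–seq reads there.

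Iqca1l, of the IQ motif family, had 136, 61.2 and 23.9 against 0, 3.91 and 19.2, a log2 fold change of -3.76 ± 0.58 (adjusted p = 0.0188), with 26 of 75 inAGTuC reads at 1 position. Srrm4, a regulator of neuronal splicing, had 246, 136 and 195 against 38.04, 71.4 and 115 (-1.35 ± 0.26, adjusted p = 0.0459), and its top position held 31 of 217 reads. In Srrm4 all 3 libraries lay above all batches, Exp234_c11 included. Gm5441, a non-coding gene, had 345, 149 and 49.95 against 11.8, 26.2 and 58.4, so that Exp234_c11 fell inside the range of the batches (-2.41 ± 0.47, adjusted p = 0.0459). Gm10644, also non-coding, Tbkbp1, for a protein that binds the kinase TBK1, and Lipe, for hormone-sensitive lipase, had smaller piles of 11, 9 and 5 reads. Within Exp208 the log2 fold change was -4.66 for Trpm1, -3.99 for Igf2r, -3.38 for Gm5441, -3.30 for Iqca1l, -2.28 for Srrm4 and -1.29 for Gm10644. With the batch block it was -1.81 for Igf2r, -1.80 for Trpm1, -1.24 for Gm5441, -0.75 for Gm10644 and -0.17 for Srrm4, with no call in either fit. Gm10644 ranged over 9.13, 31.5 and 55.5 in the batches against 98.4, 74.4 and 97.7 (-1.85 ± 0.37, adjusted p = 0.0459), and Tbkbp1 over 4.41, 10.8 and 27.8 against 71.9, 39.4 and 36.9 (-2.10 ± 0.36, adjusted p = 0.0287). Lipe ranged over 2.28, 10.3 and 35.5 against 45.4, 32.8 and 34.8 (-1.85 ± 0.37, adjusted p = 0.0459), and of these 3 genes it alone overlapped.

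Some of the piled inAGTuC reads shared a short sequence. GAATTCC lay within the 21 bases up to the RNA 3′ end at the top position of Igf2r, Trpm1, Srrm4, Iqca1l and Lipe, as the capitals above show, and not at that of Gm5441, Gm10644 and Tbkbp1. Reads with GAATTCC in that window, searched on the RNA strand, were 1.68% and 0.742% of the gene body reads of Exp208_c12 and Exp208_c14 and 0.0616% of those of Exp234_c11. They were between 0.0504% and 0.197% in the batches, and 0.0943% of all gene body bases hold it in such a window. They made up 91.2% of the inAGTuC reads of Igf2r, 84.0% of those of Iqca1l, 80.5% of those of Trpm1, 35.02% of those of Srrm4 and 27.9% of those of Lipe.

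Leaving out reads with either GAATTCC or TACAGG in that window, an alternative added after seeing the data, took Igf2r to a log2 fold change of -0.34 (adjusted p = 0.572), Trpm1 to -0.93 (adjusted p = 0.372) and Srrm4 to -0.53 (adjusted p = 0.555). Gm5441, whose inAGTuC reads do not hold the exact motif, had -2.52 (adjusted p = 0.0278), and Lrrc31 and Gabrp had -2.65 (adjusted p = 0.00633) and -2.66 (adjusted p = 0.0106). Only exact copies of the motifs were left out, and the Gm5441 position printed above holds aattcc, which is GAATTCC without its first base. In that setting 32 genes were called among 9217 tested, with 19 of the 26 among them.

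TACAGG was the sequence found at piles in scGRO–seq, and again it followed the batch. Reads with it in the 21 bases up to the RNA 3′ end were between 0.350% and 0.448% of gene body reads in Exp156, Exp160, Exp208 and Exp211, near the 0.424% of gene body bases that hold it in such a window. They were 1.90% in Exp236, 2.29% in Exp264a, 3.55% in Exp246, 8.79% in Exp260, 10.9% in Exp263 and 27.5% in Exp260b. Exp208_c12, Exp208_c14 and Exp234_c11 had 0.410%, 0.418% and 0.998%, and Exp261_c16 had 4.52%.

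Away from small RNA genes, 24000 gene body positions held at least 5 scGRO–seq reads, and 52% of them had TACAGG in that window and 0.0833% GAATTCC. At least 5 inAGTuC reads lay on 1013 positions, of which 1.78% had TACAGG and 21.8% GAATTCC. In the introns of Khk, Plxna2, Agxt and Nbea, the 4 positions printed above held 4007, 2773, 2051 and 1799 scGRO–seq reads, each in 6 batches, and 11, 1, 0 and 2 inAGTuC reads. Khk encodes the kinase that starts fructose breakdown, Plxna2 a semaphorin receptor, Agxt a liver aminotransferase of peroxisomes, and Nbea a protein of membrane traffic in neurons. One design of the azide-bearing adaptor in the study carries ACAGG directly after its azide-modified T. The labels do not say which libraries used it, and whether it has a part in these piles was not tested.

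**Figure D4:**
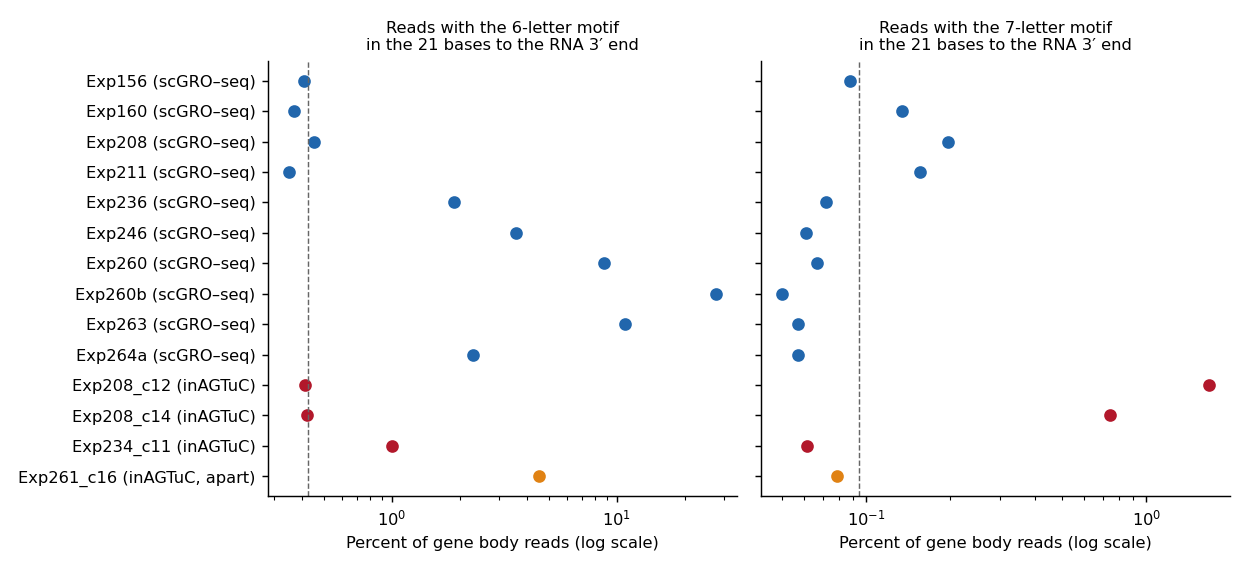
Percent of gene body reads (x axis, log scale) with the 6 letters TACAGG (left) or the 7 letters GAATTCC (right) in the 21 bases up to the RNA 3′ end, for the 10 batches (blue), 3 inAGTuC libraries (red) and Exp261_c16 (orange), with the share of all gene body bases as a dashed line. Exp236 to Exp264a, Exp234_c11 and Exp261_c16 lie well right of the line on the left, and on the right Exp208_c12 and Exp208_c14 lie farthest right of it, at 1.68% and 0.742%, with the batches Exp208, Exp211 and Exp160 right of it too, at 0.197%, 0.155% and 0.134%.

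Of the 24 gene lists, 22 had tested members, and those that host snoRNAs stood highest. In the list of snoRNA hosts 34 of 36 members were tested, 2 were called, both higher in scGRO–seq, where 0.0607% of all tested genes were, and the median log2 fold change was 1.29, where it was 0.016 over all genes. Among cytosolic ribosomal protein genes 49 were tested and 2 called, Rpl13 and Rps3, with a median of 1.23. The 28 of them with an annotated snoRNA in the gene body had a median of 2.01 and the 21 without one had 0.30. Nucleolar genes for ribosome biogenesis had 1 called of 28, Ncl, and a median of 0.48, with Nop56, a core protein of C/D snoRNA particles, at 1.88 ± 0.54 (adjusted p = 0.169). With the batch block over Exp208, Exp234 and Exp261, Nop56 was at -0.34.

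Heat shock and chaperone genes had 0 of 20 called and a median of 0.59, and their 2 members of smallest p are themselves snoRNA hosts. Tcp1 had 1.42 ± 0.33 (adjusted p = 0.0806) and Cct6a 1.89 ± 0.49 (adjusted p = 0.114), both subunits of the TRiC chaperonin, with 42.8% and 80.4% of their scGRO–seq reads within 10 bases of a small RNA gene. Genes of actin and tubulin had 0 of 13 called and a median of 0.75. Flna, which encodes filamin A, had no reads near small RNA genes, a log2 fold change of 1.50 ± 0.38 (adjusted p = 0.107) and values that did not overlap, with 115, 159 and 349 in the batches against 60.6, 76.6 and 49.95.

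A median between 0.35 and 0.45 was found for splicing factors with retained exons (0 of 33 called, 0.36), nuclear long non-coding RNAs (0 of 20, 0.45), imprinted genes (1 of 19, 0.40) and genes longer than 500 kb (0 of 206, 0.35). The called imprinted gene, Igf2r, was lower in scGRO–seq, as 0.202% of all tested genes were, against the sign of its list's median. Son, a nuclear speckle protein, came nearest to a call, at 1.22 ± 0.26 (adjusted p = 0.0517) with 134, 227 and 260.5 in the batches against 121, 118 and 58.6. Pde4d, a long phosphodiesterase gene, had 0.95 ± 0.23 (adjusted p = 0.0921), again without overlap, and Kcnq1ot1, an imprinted antisense RNA, had 1.03 ± 0.26 (adjusted p = 0.107).

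The 4 lists of lowest median held 2 called genes. Against 0.202% of all tested genes called lower in scGRO–seq, targets of p53 had 1 of 18, Cdkn1a, and a median of -0.41, and Trp53cor1, a p53-induced non-coding RNA near Cdkn1a, had -1.62 ± 0.40 (adjusted p = 0.103). Genes of hypoxia and glycolysis had 1 of 24, Bnip3, and a median of -0.22, and P4ha1, a collagen prolyl hydroxylase, had -1.35 ± 0.34 (adjusted p = 0.111). Genes of the integrated stress response had 0 of 18 called and a median of -0.22. Lineage regulators had 0 of 6 called and a median of -0.16, with Gata4 at -1.55 ± 0.45 (adjusted p = 0.172). Within Exp208 the log2 fold change turned to 0.33 for Gata4 and 0.14 for P4ha1, and it was -0.94 for Trp53cor1.

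The other lists had medians between -0.08 and 0.27, namely proteasome subunits (0 of 25 called, 0.27), replication licensing and G1/S genes (0 of 27, 0.27), G2 and mitosis genes (0 of 28, 0.07), Polycomb genes (0 of 23, 0.26), cholesterol synthesis (0 of 22, -0.08), respiratory chain subunits (0 of 26, 0.14), fibroblast genes (0 of 10, 0.23) and immediate early genes (0 of 5, 0.21). No gene of the 2-cell-like state and no olfactory receptor had enough reads to test. The lists are described by counts and medians only.

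The pluripotency genes of ES cells were not called in either direction. Of 22 tested, 14 were above 0, and the median log2 fold change was 0.27. Nanog had 15.2, 31.3 and 82.9 in the batches against 34.1, 34.9985 and 19.5 (0.09 ± 0.36), and Pou5f1 had 9.77, 31.9 and 44.1 against 7.57, 24.1 and 19.5 (0.59 ± 0.52), so that the assays overlapped in both. The members of smallest p by limma voom, L1td1 and Trim71, were above 0, at 0.97 ± 0.31 (adjusted p = 0.219) and 0.84 ± 0.28 (adjusted p = 0.234). Klf4 was the lowest of the list at -1.37 ± 0.55 (adjusted p = 0.329), with 2.65, 19.8 and 71.1 against 15.1, 28.4 and 73.8. Sall1 had -0.23 ± 0.26 and Hells, a chromatin remodeller, 0.55 ± 0.30. Of widely transcribed genes, Gapdh had 0.01 ± 0.26, Malat1 0.51 ± 0.30, Actb 0.75 ± 0.46 and Npm1 0.77 ± 0.29, and the lowest adjusted p among them was 0.288, for Npm1.

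Classes of reads were compared as shares of each sample, with a two-sided exact permutation test of the difference in means over 10 batches and 3 libraries for 16 classes. No class passed an adjusted p of 0.05, and 3 had an unadjusted p below it, where the smallest p the design allows is 0.0035. Reads within 5 kb past gene ends made up 3.03% ± 0.24 of kept reads in scGRO–seq (SD, n = 10) and 3.54% ± 0.18 in inAGTuC (n = 3), and no batch reached the lowest inAGTuC library (exact permutation p = 0.00699, adjusted p = 0.112). Within Exp208 the shares were 3.04% and 3.52%, but Exp261_c16 had 3.24%, inside the range of the batches. Without Exp264a, 2 classes passed the adjusted threshold.

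The 10 gene bodies with most reads took 5.32% ± 2.02 of gene body reads in scGRO–seq and 2.20% ± 0.85 in inAGTuC (exact permutation p = 0.0280, adjusted p = 0.224), and Exp261_c16 had 6.50%. Replication-dependent histone genes took 0.0179% ± 0.0097 and 0.0309% ± 0.0007 (exact permutation p = 0.0455, adjusted p = 0.238), with 0.0296% and 0.0308% within Exp208 and 0.0124% in Exp261_c16. In both classes Exp261_c16, whose reads are listed under both assays, thus lay with the batches and far from the 3 other inAGTuC libraries.

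Genes under 10 kb took 11.7% ± 3.45 of gene body reads in scGRO–seq and 7.24% ± 2.27 in inAGTuC (exact permutation p = 0.0594, adjusted p = 0.238), while genes over 100 kb took 39.1% ± 3.3 and 39.3% ± 2.5. Reads antisense to genes were 17.6% ± 3.8 and 23.8% ± 8.6 of kept reads, the latter with 33.7% in Exp234_c11 against 19.6% and 18.2% in the others. Sense gene body reads were 29.4% in Exp234_c11, below its antisense share, against 40.7% and 54.7% in Exp208_c12 and Exp208_c14. The batches had at least 34.2% sense and at most 23.3% antisense. Exp234_c11 thus differed in strand balance from all other samples compared, and the cause was not tested. Introns took 38.6% ± 7.1 and 36.9% ± 10.8, exons 7.86% ± 2.59 and 7.35% ± 2.26, and the first 500 bp of genes 1.73% ± 0.59 and 1.83% ± 0.11. The spread between samples of 1 assay was larger than the difference between the assays for these last 3 classes.

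**Figure D5:**
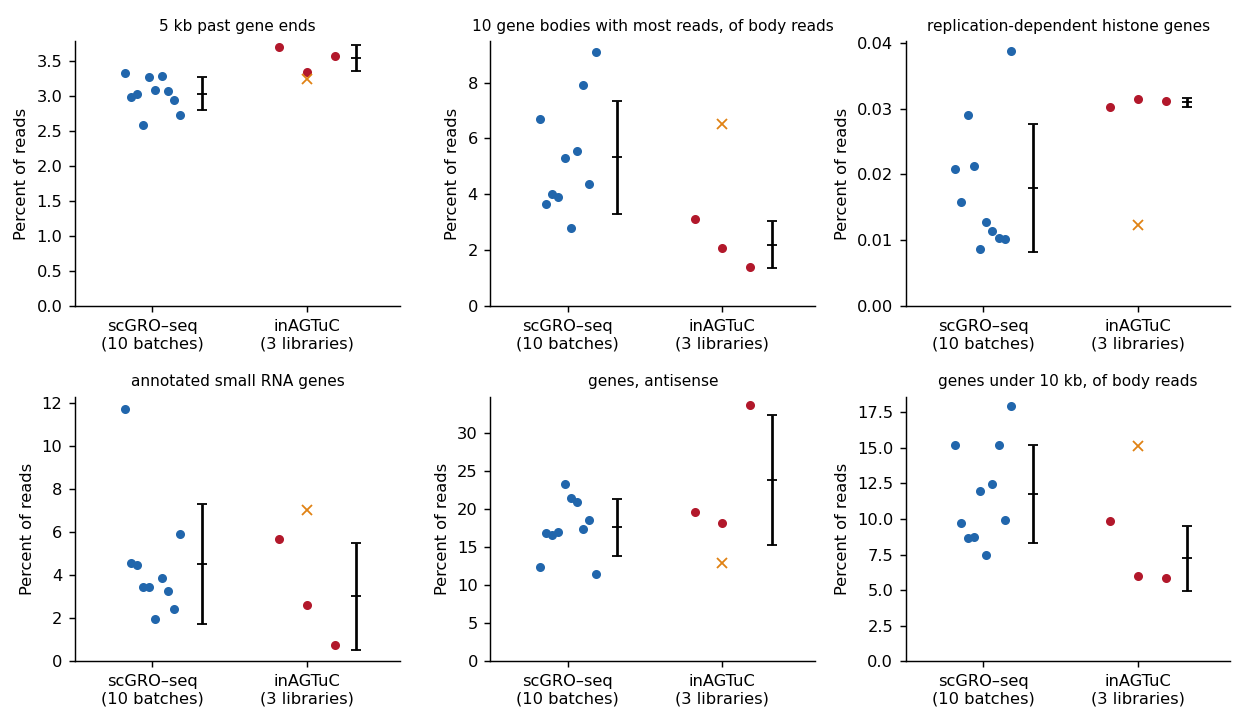
Share of reads (y axis, percent of kept or of gene body reads) in 6 of the 16 classes for each scGRO–seq batch (blue) and inAGTuC library (red), with mean ± SD beside them and Exp261_c16 as a cross. The 3 inAGTuC libraries lie above all batches in the 5 kb past gene ends, and Exp234_c11 stands apart at 33.7% in the antisense share.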

How the data were processed

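The data were lists of mapped reads, 1 list per library, from 53 scGRO–seq and 3 inAGTuC libraries, with Exp261_c16 apart. The authors trimmed reads with cutadapt, split them by well barcode, aligned them with Bowtie2 to mm10 (GRCm38) and collapsed duplicates with UMI-tools, per the labels and the study's methods; versions are not given in the sources used here. The deposited lists hold positions, barcodes and a mapping quality score, with no column of counts. RNA was taken on the strand opposite to the listed one. Reads listed in more than 1 library were left out. RNA 3′ ends were then counted in 23111 RefSeq gene bodies trimmed by 500 bp at each end, leaving out reads that fall in more than 1 gene on the same strand, so Sox2 and Sox1, which lie inside other genes, were not tested.

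Genes with enough reads (at least 10 reads at the median depth in 3 samples and at least 15 in all) were tested with limma 3.58.1 voom in R 4.3.3 after TMM scaling (30% and 5% trimmed), all groups in 1 fit, with Benjamini-Hochberg adjustment at 0.05. The plan named another tool for counts, and limma voom was used because the files hold no count column. Class shares were tested by exact permutation over the 286 possible assignments. Counts were made with Python 3.11.15 and pandas 2.3.3, and the scripts were tested on simulated data. There, samples were drawn independently with the same dispersion of 0.2 for every gene, without batch effects or piled reads. Under that setting 2 of 50 genes changed 2-fold, 29 of 50 changed 4-fold and 49 of 50 changed 8-fold were recovered. Of 9677 unchanged genes 6 were called. The simulation checks the scripts and does not give these rates for the real samples, which share batches and hold piled reads. Body reads were between 192410 and 2504677 per batch and 252564, 446941 and 428367 in the libraries. Small levels carry counting error, and any duplicates that were not collapsed add to it.

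The members and gene lists were chosen with earlier results of these data known. Named genes were the 8 largest consistent folds in each direction with a level of at least 20, the 6 smallest p in each direction that also hold without small RNA genes and repeated positions, the 2 members of smallest p in each list, and genes the study names. Of the genes named, Txnip, Srrm4, Ccdc136, Lipe, Cyba, Fads6, Gm5441, Carmil3 and Neil2, as well as the genes at TACAGG positions, were chosen after their values were seen. Alternatives covered scaling, filters, reads counted, batches and left-out samples.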

Additional observations from a re-analysis of the deposited data

Results flagged for a closer look

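Over 44 groups of 10 batches, 9 had 1 batch whose gap to the nearest other exceeded Dixon's critical value of 0.466 of the range. Chance gives about 1 in 20 for independent groups of normally distributed values. These groups are not independent, since introns lie within genes and genes were chosen from these data, so the 9 cannot be set against that rate. Exp156, the batch of fewest reads, stood highest in the share of reads on small RNA genes (11.7%), in gene bodies (64.9%) and in introns (56.4%), and in the levels of Kansl2 (1689), Carmil3 (59.2) and Lipe (35.5). Exp160 stood highest in the levels of Tbkbp1 (27.8) and Iqca1l (19.2). Exp260b stood highest in the share of gene body reads with TACAGG, at 27.5%.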

How the results depend on the processing

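The number of genes that differed, 26 in all, moved widely with the setting. It was 108 with scaling to gene body totals. It was 103 with only the scGRO–seq barcodes of at least 1000 reads and 750 genes, in libraries holding at least 24. The study's limit of 750 counts enhancers as well as genes, and inAGTuC barcodes were not filtered. It was 17 without motif reads, small RNA genes and 10 bases around them, 12 with a mean of at least 50 reads, 7 without small RNA genes, 6 with 10 bases around them left out too, 5 with no filter on low counts, 4 with all deposited reads or batch as a random block, 3 at a mapping quality of at least 20 or with the Exp208 inAGTuC libraries summed, and 2 without small RNA genes at 1 read per position. By limma voom it was 0 within Exp208 (308 at an unadjusted p below 0.05) and 0 with Exp261_c16 added (369). Leaving out 1 sample gave between 0 and 48. The count was 0 without Exp236 (925 at an unadjusted p below 0.05), 2 without Exp264a, 4 without Exp260 or Exp208_c14, 9 without Exp246, 11 without Exp263, 14 without Exp156, 15 without Exp260b and 48 without Exp211. It was 23 without Exp234_c11, 0 of them higher in scGRO–seq and 8 shared with the 26, and 22 without Exp208_c12, 15 of them higher and 11 shared. Other settings gave between 20 and 37. By direction, gene body totals gave 14 higher and 94 lower in scGRO–seq, all kept reads 16 and 18, and kept barcodes 20 and 83. With a batch block over Exp208, Exp234 and Exp261 the count was 24, all higher in scGRO–seq, and none of the 26 was among them. That block turned the log2 fold change of Ncl to -0.090, Gas5 to -0.30, Rps3 to -0.19, 2410006H16Rik to -0.020 and Fads6 to 0.47, and Txnip was at 0.020 within Exp208. Of genes not called, the block also turned Nop56 to -0.34, Kcnq1ot1 to -0.36, Cct6a to -0.12 and Pde4d to -0.079, among others. The cause of these turns was not tested. The count of classes past the adjusted threshold, 0, was between 0 and 2 with 1 sample left out, and 2 without Exp264a. Low read counts limit genes at levels near 20.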
